A study of Mus musculus with 12 samples.

Results

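The comparison described here is between F4/80+ cell preparations from the kidneys of Trp/Trp and Arg/Arg mice, and it uses 6 of the 12 libraries in the study: 3 Trp/Trp and 3 Arg/Arg, each a biological replicate per the labels. The mice were homozygous for the major (Arg) or the minor (Trp) allele of rs3184504, a polymorphism of Sh2b3. Both genotypes had received angiotensin II for 4 weeks, so the controls carry that treatment too and no library without it was analysed here. Cells were prepared with a Percoll gradient and microbeads against F4/80, and they came from kidneys other than those used for the 6 whole-kidney libraries. Strain, sex and age, and whether an allele rests on 1 founder line, are not given by the labels. The genes are the 13845 nuclear protein-coding rows among the 18145 rows of the F4/80+ count table, of which 12673 passed the filter on low counts. Levels are counts per 1000000 of these nuclear protein-coding counts (CPM), scaled with the trimmed mean of M-values, and log2 fold changes are Trp/Trp over Arg/Arg with their standard error (SE).

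Sh2b3, also called LNK, is an adaptor protein that restrains cytokine receptor and JAK-STAT signalling in blood cells and endothelium. Adgre1 encodes F4/80, found on the surface of mouse tissue macrophages, which in the kidney lie between the tubules and present antigen on MHC class II. Proximal tubule cells, the most abundant epithelium of the kidney cortex, recover filtered sodium, sugars, amino acids and phosphate.

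The libraries held 35883980 to 51603745 counts, of which 70.1 to 83.6% were mitochondrial and 6879337 to 11143970 (15.4 to 28.6%) were nuclear protein-coding. Replicates of a genotype did not all lie together. The leading principal component (48.9% of variance) put Arg/Arg replicates 2 and 3 at 47.6 and 37.8, and Arg/Arg replicate 1 at -20.5, beside Trp/Trp replicate 3 at -22.4. Trp/Trp replicate 2 was at -46.6 and Trp/Trp replicate 1 at 4.07, so the genotypes overlapped on this component, and Trp/Trp replicate 1 also had the highest score on the second component, 42.6. Each library was left out in turn, and ranges over these 6 fits are given with the library left out in parentheses. The share of all genes at an unadjusted edgeR p under 0.05, 8.55% with all 6 libraries, moved as well. It was 19.8%, 4.27% and 2.3% without Arg/Arg replicates 1, 2 and 3. Without Trp/Trp replicates 1, 2 and 3 it was 12.1%, 4.82% and 5.27%. The count of a list in a fit is to be read beside the share in that fit.

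The defining macrophage genes were present at low levels and the tubular genes at high levels in every library. Adgre1 was at 9.98, 1.39 and 2.33 CPM in Arg/Arg replicates 1 to 3 and 2.11, 10.5 and 16.1 CPM in Trp/Trp replicates 1 to 3, from raw counts of 74, 10 and 21 against 24, 98 and 127. Arg/Arg replicate 1 was close to Trp/Trp replicate 2 and Trp/Trp replicate 1 was lower than Arg/Arg replicate 3, so the target of the beads did not separate the genotypes. Csf1r, the receptor for the main macrophage growth factor, was at 23.2, 17.5 and 17.8 CPM in Arg/Arg and 28.7, 26.1 and 22.5 CPM in Trp/Trp. The 22 proximal tubule markers summed to 41525, 97995 and 94981 CPM in Arg/Arg and 56216, 25858 and 44109 CPM in Trp/Trp, and the 19 T and natural killer cell markers, of which 3 were in the table, to 8.36, 2.36 and 2.11 and 8.62, 3.1 and 7.5 CPM. Cd3d, Cd3e and Ms4a1, which define T and B cells, were not among the rows analysed here. The label F4/80+ is therefore used for how the cells were prepared and not as a statement that they were mostly macrophages. In bulk RNA, fewer cells of a type and less RNA per cell cannot be told apart, and this holds for every gene below.

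**Figure D1:**
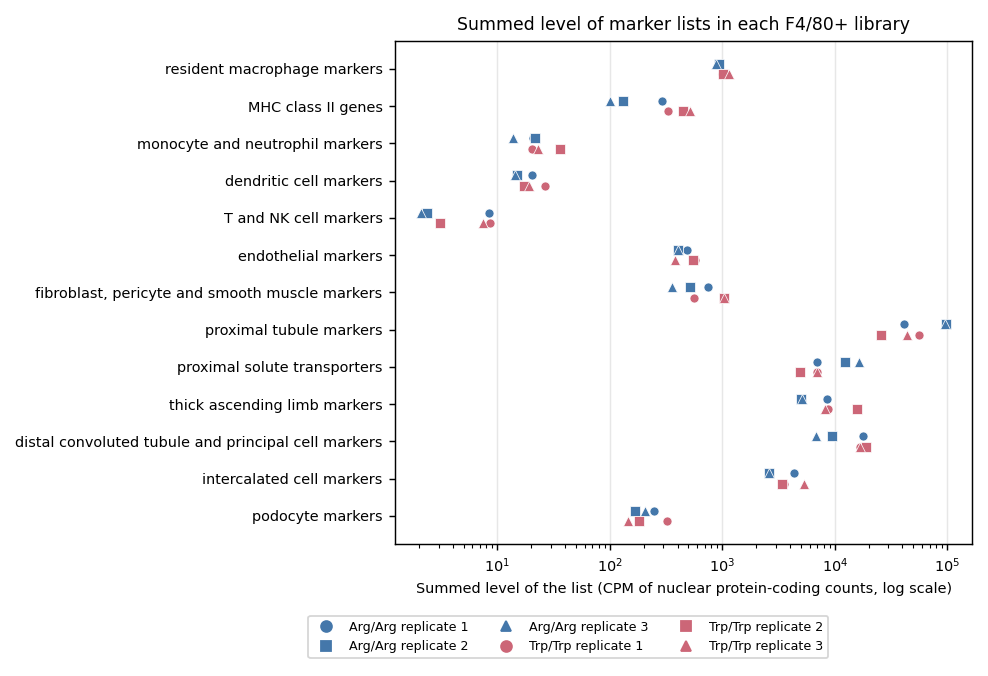
Summed level of each marker list in the 6 libraries (CPM of nuclear protein-coding counts, log axis), with genotype by colour and replicate by shape. The MHC class II sum of each Trp/Trp library is above those of all 3 Arg/Arg libraries, and Arg/Arg replicate 1 lies nearer to the Trp/Trp libraries than Arg/Arg replicates 2 and 3 in the MHC class II and proximal tubule lists.

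Among the 15 genes with the smallest p-values on the higher side in Trp/Trp (mean count of at least 50) were H2-Ab1, Cd74 and C1qc, genes of antigen presentation and macrophages, beside Sdf2l1, Lrrc32 and others. The 15 on the lower side were led by Clec2h, Car14 and Cyp26b1 and included the proximal tubule genes Slc5a12, Slc6a19, Slc13a1 and Gatm. No gene passed edgeR's quasi-likelihood test after Benjamini-Hochberg adjustment: 0 of 12673 genes (0%) were called, and the smallest adjusted p was 0.566. At an unadjusted p under 0.05 edgeR gave 1084 genes (8.55%), 571 higher (4.51%) and 513 lower (4.05%) in Trp/Trp. All 3 Trp/Trp values lay above all 3 Arg/Arg values for 812 genes (6.41%) and below them for 547 genes (4.32%). Over 2-fold differences were more often higher (332 genes) than lower (164 genes), and the median log2 fold change of all genes was 0.01.

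The count of calls differed between tools. The DESeq2 Wald test gave a p to 13844 genes but, with its default filter on mean count, an adjusted p to only 961. It called 12 of the 961 (1.25%), all lower in Trp/Trp. These included Gatm, Slc13a1, Resf1, Nox4, Ttr, Cltrn, Papss2, Fut9, Nr1h4, Slco1a6 and Fmo2. At an unadjusted p under 0.05 the DESeq2 Wald test had 608 genes higher and 721 lower, so the direction of the 12 is not that of all genes. The limma voom fit with estimated sample weights called 1125 genes (8.88%), 623 higher (4.92%) and 502 lower (3.96%). Its weights were 0.437, 2.69 and 0.732 for Arg/Arg replicates 1 to 3 and 0.541, 0.902 and 2.38 for Trp/Trp replicates 1 to 3, lowest for the libraries numbered 1. This fit differs from edgeR in both the test and the weights, and their parts in the count were not separated. The p-values measure the spread between these samples only.

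**Figure D2:**
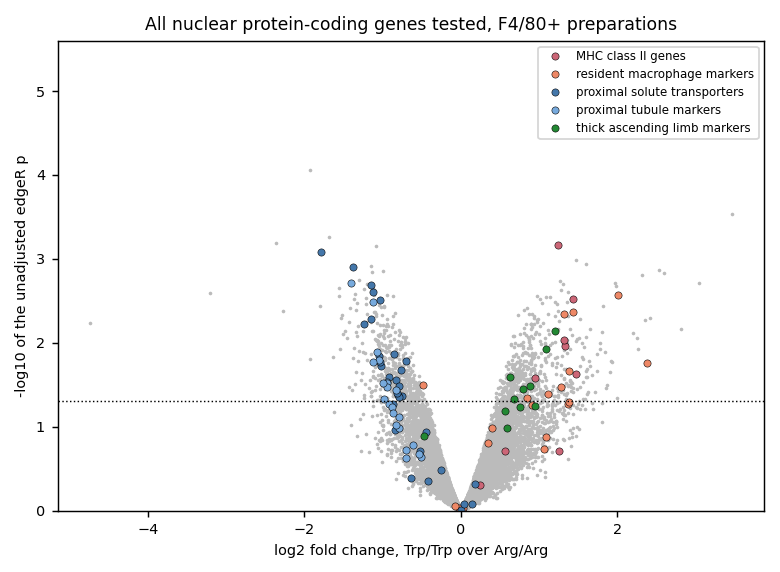
Log2 fold change of Trp/Trp over Arg/Arg (x axis) against -log10 of the unadjusted edgeR p (y axis) for the 12673 genes tested, with the genes of selected lists in colour and the dotted line at an unadjusted p of 0.05. All 22 proximal tubule markers lie on the negative side and all 9 MHC class II genes on the positive side, and no gene passed after adjustment.

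Sh2b3 itself, the gene that carries the polymorphism, was at 22.2, 26.7 and 22.4 CPM in Arg/Arg replicates 1 to 3 and 31, 17.1 and 21.9 CPM in Trp/Trp replicates 1 to 3. The genotypes overlapped, with the highest and the lowest level both in Trp/Trp libraries. Its log2 fold change was -0.03 ± 0.26 (edgeR adjusted p = 0.993), a value whose sign changed under 5 of the alternatives. A change of 1 amino acid need not alter the level of the transcript, so Sh2b3 gives no check of the genotype labels.

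Of the 28 genes of the Sh2b and JAK-STAT list, which holds the receptors, kinases, transcription factors and inhibitors that this adaptor works among, 23 were tested. Their median log2 fold change was 0.04, with 12 positive and 11 negative, against 50.9% positive over all genes; without the scaling factor 22 were positive and 1 negative, so no direction is given for the list. An unadjusted edgeR p under 0.05 was reached by 2 genes on the higher side (4.51% of all genes), Socs1 and Socs3, which encode feedback inhibitors of cytokine receptors. Socs1 was at 0.539, 0.417 and 0.111 CPM in Arg/Arg and 1.93, 1.39 and 2.16 CPM in Trp/Trp, with no overlap (2.36 ± 0.69). It passed the filter on low counts only through the Trp/Trp libraries, so its sign and lack of overlap follow from the filter. Socs1 counts among the 2 above, so that count is not read as a result about the list. Socs3 was at 196, 144 and 104 CPM in Arg/Arg and 257, 209 and 207 CPM in Trp/Trp, again with no overlap (0.60 ± 0.26). The erythropoietin receptor Epor was at 2.29, 1.53 and 1.11 CPM in Arg/Arg and 5.63, 1.71 and 3.69 CPM in Trp/Trp, with overlap (1.17 ± 0.55). That count of 2 ran from 1 (Arg/Arg 2 or Arg/Arg 3) to 7 (Arg/Arg 1).

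The MHC class II list holds the chains that carry peptides to CD4 T cells, the chaperones that load them (H2-DMa, H2-DMb1, the invariant chain Cd74), the protease Ctss and the transactivator Ciita. Of its 12 genes 9 were tested, and all 9 had a positive log2 fold change, with a median of 1.25 against 0.01 for all genes. An unadjusted edgeR p under 0.05 was reached by 6 of the 9 on the higher side (4.51% of all genes), and the genotypes did not overlap in 5 of the 9 (6.41% of all genes). The limma voom fit called 6 of the 9 higher (4.92% of all genes). Of 7 promoter windows searched, the 4 that held a motif match are shown, since MHC class II promoters are known for shared elements, the X box and the Y box, which bind the factors that recruit Ciita. Each run is the 110 bases before the start of the gene, read 5′ to 3′ on the gene's strand, from RefSeq for GRCm38.p6. Capitals mark CCAAT and ACNGATG, each on either strand (a Y box reads ATTGG).
H2-Aa: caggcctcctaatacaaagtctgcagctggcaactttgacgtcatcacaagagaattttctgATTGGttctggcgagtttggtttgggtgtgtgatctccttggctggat
H2-Eb1: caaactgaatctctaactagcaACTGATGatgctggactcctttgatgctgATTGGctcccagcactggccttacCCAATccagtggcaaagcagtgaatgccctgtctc
H2-DMb1: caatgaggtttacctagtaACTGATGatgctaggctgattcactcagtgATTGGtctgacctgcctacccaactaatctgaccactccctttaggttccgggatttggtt
H2-Ob: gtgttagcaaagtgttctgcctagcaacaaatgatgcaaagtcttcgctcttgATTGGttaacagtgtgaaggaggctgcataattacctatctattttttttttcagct

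These windows lie on chromosome 17 at 34287824 to 34287933 on the minus strand for H2-Aa, and on the plus strand at 34305757 to 34305866 for H2-Eb1, 34153081 to 34153190 for H2-DMb1 and 34238795 to 34238904 for H2-Ob. The search left out genes on chromosome 18, and with them Cd74, and H2-Ab1 and Ciita had no entry in the RefSeq table. For the 6 tested genes of the list that were searched (7 windows), 4 windows held CCAAT and 2 held both motifs. Both H2-DMa windows and that of Ctss held neither. Over all 32851 promoters, 20.2% of windows of the same length held CCAAT, 3.53% ACNGATG and 0.676% both. The motifs do not overlap each other in the windows shown. A match is a description of the letters and not of a bound site. Only these exact strings were searched, so a window without a match is not shown to lack an X box or a Y box.

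H2-Ab1, the beta chain of I-A, had the smallest p of the higher genes with a mean count of at least 50. It was at 52.7, 37.6 and 25 CPM in Arg/Arg replicates 1 to 3 and 85.4, 90.4 and 97.1 CPM in Trp/Trp replicates 1 to 3. Every Trp/Trp library was above every Arg/Arg library, and the log2 fold change was 1.24 ± 0.27 (edgeR adjusted p = 0.566). Cd74 was at 57.7, 24.7 and 18.1 CPM in Arg/Arg and 69.7, 92.5 and 108 CPM in Trp/Trp, with no overlap and a log2 fold change of 1.43 ± 0.38. The genotypes came closest in Arg/Arg replicate 1, at 57.7 CPM, and Trp/Trp replicate 1, at 69.7 CPM.

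H2-Eb1, the beta chain of I-E whose promoter holds both motifs, was at 67.8, 23.2 and 18.3 CPM in Arg/Arg and 70.4, 98.3 and 105 CPM in Trp/Trp (1.32 ± 0.42). Its groups did not overlap, by a narrow margin between the libraries numbered 1. The alpha chain H2-Aa was at 86.3, 31.3 and 23.4 CPM in Arg/Arg and 76.3, 124 and 156 CPM in Trp/Trp (1.34 ± 0.44), and here Arg/Arg replicate 1 was above Trp/Trp replicate 1. H2-DMb1, with both motifs, was at 4.45, 5.28 and 5.22 CPM in Arg/Arg and 4.66, 5.45 and 7.76 CPM in Trp/Trp, and its log2 fold change of 0.25 ± 0.35 was the smallest of the list. Ctss, which trims the invariant chain, was at 15.1, 3.2 and 4.22 CPM in Arg/Arg and 9.41, 24.2 and 28.7 CPM in Trp/Trp (1.47 ± 0.56), with overlap. Ciita was at 2.97, 2.22 and 2.33 CPM in Arg/Arg and 3.17, 3.85 and 4.2 CPM in Trp/Trp (0.57 ± 0.41), without overlap. The list's median ran from 0.98 (Arg/Arg 3) to 2.07 (Arg/Arg 1), and its count at an unadjusted edgeR p under 0.05 from 4 (Arg/Arg 2 or Arg/Arg 3) to 7 (Arg/Arg 1).

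The MHC class I list, which presents peptides from inside the cell to CD8 T cells, had 10 of its 11 genes on the positive side (50.9% of all genes) with a median of 0.43. H2-K1 was at 218, 208 and 156 CPM in Arg/Arg and 291, 237 and 254 CPM in Trp/Trp with no overlap (0.43 ± 0.23). Only 1 gene of the list, Psmb8, a subunit of the immunoproteasome, had an unadjusted edgeR p under 0.05 (1.03 ± 0.45; 4.51% of all genes on the higher side), and limma voom called 0 of the 11. The median of the list ran from 0.23 (Arg/Arg 3) to 0.50 (Arg/Arg 2), and the count of 1 fell to 0 without Arg/Arg 3, Trp/Trp 1 or Trp/Trp 3.

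The resident macrophage list had 24 genes, of which 19 were tested. The log2 fold change was positive for 16 and negative for 3, with a median of 1.09. An unadjusted edgeR p under 0.05 was reached by 8 on the higher and 1 on the lower side, against 4.51% and 4.05% of all genes, and limma voom called 10 higher. The 3 chains of complement C1q, secreted by tissue macrophages, were all on the positive side. C1qc was at 3.91, 2.92 and 0.555 CPM in Arg/Arg replicates 1 to 3 and 9.5, 11 and 8.9 CPM in Trp/Trp replicates 1 to 3. The lowest Trp/Trp library was above the highest Arg/Arg library, and the log2 fold change was 2.01 ± 0.53. C1qb was also without overlap (1.39 ± 0.52), and C1qa, at 2.97, 0.972 and 0.555 CPM in Arg/Arg and 2.11, 4.38 and 5.09 CPM in Trp/Trp, overlapped (1.37 ± 0.63).

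Tyrobp, an adaptor of activating myeloid receptors, was at 3.24, 2.22 and 2.00 CPM in Arg/Arg and 6.33, 5.02 and 8.9 CPM in Trp/Trp (1.44 ± 0.40), and Apoe at 49.5, 26.5 and 13.7 CPM in Arg/Arg and 68.5, 72.3 and 82 CPM in Trp/Trp (1.32 ± 0.37), both without overlap. Lyz2, the lysozyme of myeloid cells, was at 54.5, 12.5 and 14.1 CPM in Arg/Arg and 35.9, 63.6 and 96.6 CPM in Trp/Trp and overlapped, with Arg/Arg replicate 1 above Trp/Trp replicate 1. Adgre1 had a log2 fold change of 1.06 ± 0.75 (edgeR adjusted p = 0.727), and Csf1r 0.40 ± 0.23. Not all members were on the positive side. Mertk, a receptor for the uptake of dying cells, was at 77.3, 87.8 and 92.5 CPM in Arg/Arg and 65.3, 60.1 and 59.3 CPM in Trp/Trp, lower in each Trp/Trp library than in each Arg/Arg library (-0.48 ± 0.20). The median of the list ran from 0.71 (Arg/Arg 3) to 1.66 (Arg/Arg 1) and its count on the higher side from 3 (Trp/Trp 3) to 13 (Arg/Arg 1). Adgre1 was at 2.32 when Arg/Arg replicate 1 was left out and at 0.45 when Trp/Trp replicate 3 was.

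The lysosomal enzymes used to describe phagocytes gave no common direction. Of 15 tested, 5 were positive and 10 negative, with a median of -0.36 that ran from -0.54 (Arg/Arg 1) to -0.26 (Arg/Arg 2). Laptm5, a lysosomal membrane protein of blood cells, was at 2.83, 1.81 and 0.111 CPM in Arg/Arg and 3.69, 8.12 and 10.6 CPM in Trp/Trp (2.25 ± 0.71), while Lipa, the acid lipase, was at 156, 318 and 367 CPM in Arg/Arg and 175, 135 and 175 CPM in Trp/Trp (-0.79 ± 0.31). Proximal tubule cells also express many lysosomal enzymes, and the summed level of the proximal tubule list was 41525, 97995 and 94981 and 56216, 25858 and 44109 CPM in the same libraries; its part in these values was not tested.

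Of 23 inflammatory cytokines and chemokines 14 were tested, with 12 positive, 2 negative and a median of 1.16. An unadjusted edgeR p under 0.05 was reached by 6 on the higher and 1 on the lower side, against 4.51% and 4.05% of all genes. Il1b, the interleukin made by activated macrophages, was at 38, 13.1 and 8.55 CPM in Arg/Arg replicates 1 to 3 and 40.4, 69.3 and 101 CPM in Trp/Trp replicates 1 to 3. The closest libraries were again those numbered 1, at 38.0 and 40.4 CPM, and the log2 fold change was 1.82 ± 0.50. Tnf was at 0.809, 0 and 0.333 CPM in Arg/Arg and 2.2, 3.42 and 4.2 CPM in Trp/Trp (3.05 ± 0.76) and the monocyte attractant Ccl12 at 0.404, 0.972 and 0.333 CPM in Arg/Arg and 3.34, 2.24 and 4.32 CPM in Trp/Trp (2.53 ± 0.60). Both were near the detection limit in Arg/Arg and passed the filter on low counts only through the Trp/Trp libraries. Their sign and lack of overlap therefore follow from the filter, and both count among the 6 above. Cxcl1, a neutrophil attractant that tubule cells also make, went the other way, at 21.3, 53.8 and 51.5 CPM in Arg/Arg and 22.2, 19.6 and 28 CPM in Trp/Trp (-0.86 ± 0.33). The median of the list ran from 0.69 (Arg/Arg 3) to 2.19 (Arg/Arg 1) and the count on the higher side from 3 (Arg/Arg 2 or Arg/Arg 3) to 11 (Arg/Arg 1).

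Among 19 interferon-stimulated genes tested, 17 were positive with a median of 0.57. On the higher side 3 had an unadjusted edgeR p under 0.05 (4.51% of all genes), a count that ran from 0 (Arg/Arg 2 or Arg/Arg 3) to 5 (Arg/Arg 1). Bst2, which tethers budding virus, was at 6.07, 5.14 and 4.78 CPM in Arg/Arg and 10.0, 9.83 and 7.88 CPM in Trp/Trp without overlap (0.80 ± 0.30). Of 20 immediate early genes, which also rise when tissue is dissociated, 19 were positive, with a median of 0.41 that ran from 0.25 (Arg/Arg 3) to 0.59 (Arg/Arg 1). On the higher side 3 had an unadjusted edgeR p under 0.05 (4.51% of all genes), with a range from 0 (Arg/Arg 2 or Arg/Arg 3 or Trp/Trp 3) to 8 (Arg/Arg 1). Their summed level was 10495, 8580.5 and 7339.7 CPM in Arg/Arg and 10422, 11908 and 11669 CPM in Trp/Trp, and the part of dissociation in the values above was not tested.

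The other genes among the 15 with the smallest p on the higher side belonged to several cell types. Sdf2l1, part of a chaperone complex of the endoplasmic reticulum, was at 4.58, 3.2 and 4.22 CPM in Arg/Arg replicates 1 to 3 and 10.5, 8.66 and 14.2 CPM in Trp/Trp replicates 1 to 3 (1.47 ± 0.33). Each Trp/Trp library was at least as high as 8.66 CPM and no Arg/Arg library exceeded 4.58 CPM. Lrrc32, which anchors latent TGF-beta to the cell surface, was at 15.5, 10.4 and 8.89 CPM in Arg/Arg and 22.3, 39.2 and 22.1 CPM in Trp/Trp (1.27 ± 0.31), and Icam2, an adhesion molecule of endothelium and leukocytes, at 10.8, 7.22 and 4.78 CPM in Arg/Arg and 15, 22 and 18.4 CPM in Trp/Trp (1.29 ± 0.33). Hcar2, a receptor for niacin and ketone bodies found on macrophages, was at 3.64, 4.58 and 3.89 CPM in Arg/Arg and 10.8, 6.84 and 13.6 CPM in Trp/Trp (1.36 ± 0.35).

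Ptger4, a receptor for prostaglandin E, was at 11.2, 6.81 and 6.89 CPM in Arg/Arg and 16.1, 17.2 and 19.5 CPM in Trp/Trp (1.08 ± 0.29), and Gja4, a connexin of arterial endothelium, at 5.66, 5.97 and 4.55 CPM in Arg/Arg and 11.3, 14.1 and 10.2 CPM in Trp/Trp (1.14 ± 0.30). Nos1, the nitric oxide synthase of the macula densa, was at 9.84, 5.14 and 5.44 CPM in Arg/Arg and 13.4, 25.3 and 13.6 CPM in Trp/Trp (1.36 ± 0.36). The other 5 genes had log2 fold changes of 1.31 ± 0.33 for Cnp, 0.97 ± 0.25 for the epoxide hydrolase Ephx1, 1.02 ± 0.27 for the transporter Slc16a5, 1.20 ± 0.32 for Fxyd6, a regulator of the sodium pump, and 1.04 ± 0.28 for the helicase Helz2. None of these 15 overlapped between genotypes. Each had an edgeR adjusted p of 0.566 and was called by limma voom. The 15 were chosen by their p in these same libraries, so the lack of overlap and the calls are no separate support.

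**Figure D3:**
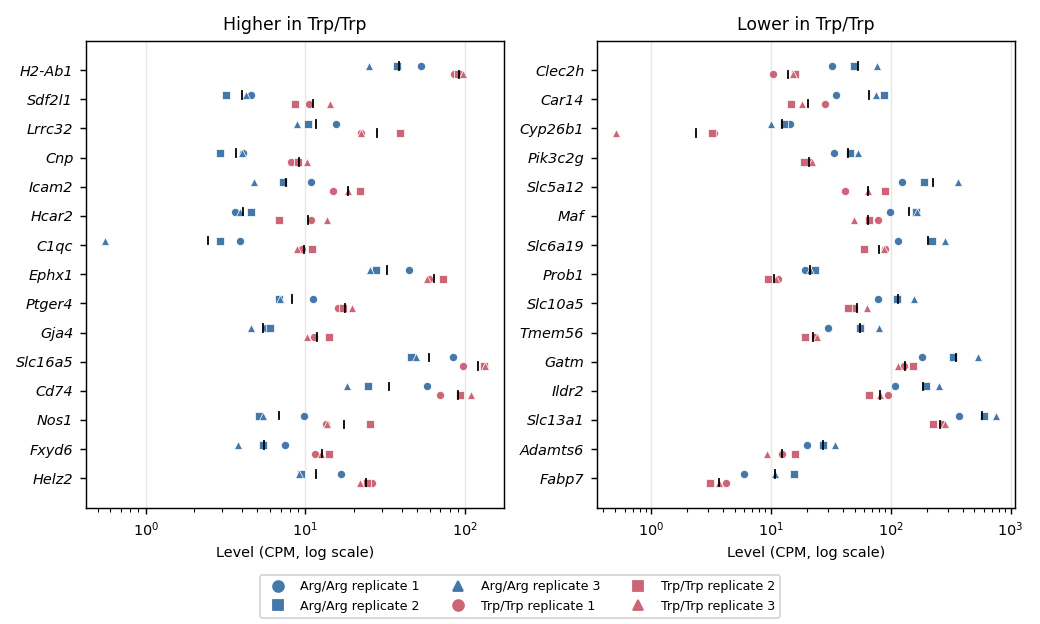
Level in each F4/80+ library (CPM, log axis) of the 15 genes with the smallest unadjusted p in each direction among genes with a mean count of at least 50, with a vertical bar at the mean of each genotype. In all 30 genes, chosen by p from these same libraries, the 3 Trp/Trp points lie on one side of the 3 Arg/Arg points.

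On the lower side the genes of the proximal tubule stood together. All 22 proximal tubule markers had a negative log2 fold change, against 49.1% of all genes, with a median of -0.90 and a range of -1.40 to -0.51. An unadjusted edgeR p under 0.05 was reached by 11 of them (4.05% of all genes), and limma voom called 16 lower (3.96% of all genes). Only 2 of the 22 did not overlap between genotypes (4.32% of all genes). By the sums given above, Trp/Trp replicate 1 was above Arg/Arg replicate 1, and Arg/Arg replicates 2 and 3 were above all other libraries. The median ran from -1.21 (Arg/Arg 1) to -0.64 (Trp/Trp 2), and the count at an unadjusted edgeR p under 0.05 from 3 (Arg/Arg 3 or Trp/Trp 2) to 20 (Trp/Trp 1).

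Gatm, which makes the precursor of creatine, was at 183, 329.9 and 540.4 CPM in Arg/Arg replicates 1 to 3 and 129, 153 and 116 CPM in Trp/Trp replicates 1 to 3. Every Trp/Trp library was below every Arg/Arg library (-1.40 ± 0.35). Slc5a2, the glucose transporter of the early proximal tubule, was at 31.8, 66.4 and 78.2 CPM in Arg/Arg and 26.7, 26.1 and 28.4 CPM in Trp/Trp, also without overlap (-1.12 ± 0.30). Cubn, a receptor for filtered proteins, was at 489, 991 and 1238 CPM in Arg/Arg and 582, 287 and 446 CPM in Trp/Trp, with Trp/Trp replicate 1 above Arg/Arg replicate 1 (-1.05 ± 0.37).

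Of 31 solute transporters of the proximal tubule, 27 were negative and 4 positive, with a median of -0.82. An unadjusted edgeR p under 0.05 was reached by 20 on the lower side (4.05% of all genes) and 0 on the higher, and 9 were lower without overlap (4.32% of all genes). The count of 20 ran from 7 (Arg/Arg 3) to 23 (Arg/Arg 1) and the median from -1.09 (Arg/Arg 1) to -0.59 (Arg/Arg 3). Slc5a12, which takes up lactate, was at 123, 191 and 362 CPM in Arg/Arg replicates 1 to 3 and 41.5, 89.9 and 64.1 CPM in Trp/Trp replicates 1 to 3. Its highest Trp/Trp level, 89.9 CPM, was below its lowest Arg/Arg level, 123 CPM (-1.79 ± 0.40). Slc6a19, the main carrier of neutral amino acids, was at 115, 219 and 282 CPM in Arg/Arg and 89.1, 59.5 and 88.6 CPM in Trp/Trp (-1.38 ± 0.32), and Slc13a1, which takes up sulfate, at 369, 604 and 758 CPM in Arg/Arg and 268, 226 and 283 CPM in Trp/Trp (-1.16 ± 0.29). Slc7a9, a subunit of the cystine transporter, was at 59.2, 128 and 122 CPM in Arg/Arg and 55.1, 42.6 and 43.6 CPM in Trp/Trp (-1.13 ± 0.29).

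The gene with the smallest p of all was Clec2h, a C-type lectin, at 32.2, 49.7 and 77.2 CPM in Arg/Arg replicates 1 to 3 and 10.5, 16 and 15.3 CPM in Trp/Trp replicates 1 to 3. The highest Trp/Trp level, 16.0 CPM, was below the lowest Arg/Arg level, 32.2 CPM, with a log2 fold change of -1.93 ± 0.32 (edgeR adjusted p = 0.566). Car14, a membrane carbonic anhydrase, was at 34.9, 87.1 and 75.6 CPM in Arg/Arg and 28.3, 14.8 and 18.2 CPM in Trp/Trp (-1.69 ± 0.35). Cyp26b1, which breaks down retinoic acid, was at 14.6, 12.8 and 10.1 CPM in Arg/Arg and 3.34, 3.21 and 0.509 CPM in Trp/Trp, the largest difference of the 15 at -2.37 ± 0.51. Maf, a transcription factor, was at 98.4, 163 and 166 CPM in Arg/Arg and 77.6, 66.5 and 49.1 CPM in Trp/Trp (-1.15 ± 0.27).

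The other 7 genes of the 15 were Pik3c2g, a phosphoinositide kinase (-1.08 ± 0.23), Slc10a5 (-1.14 ± 0.27), Tmem56 (-1.30 ± 0.32), Ildr2 (-1.20 ± 0.30), the metalloprotease Adamts6 (-1.12 ± 0.28), the fatty acid binding protein Fabp7 (-1.56 ± 0.39) and Prob1 (-0.99 ± 0.24). None of the 15 overlapped, and each was called lower by limma voom, which is no separate support for genes chosen by p in the same libraries. Clec2h, the H2 genes and the Slc families have close relatives, and no source used here says how reads shared between relatives were counted.

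The medians of the fatty acid oxidation and renin-angiotensin lists were also negative, with fewer small p-values than in the proximal tubule lists. Of 24 genes of fatty acid oxidation and peroxisomes, 21 were negative with a median of -0.30, and 1, the transcription factor Ppara, had an unadjusted edgeR p under 0.05 (-0.94 ± 0.42; 4.05% of all genes). That count ran from 0 (Arg/Arg 2 or Arg/Arg 3 or Trp/Trp 2 or Trp/Trp 3) to 8 (Arg/Arg 1 or Trp/Trp 1) and the median from -0.50 (Arg/Arg 1) to -0.18 (Trp/Trp 2). Of 10 renin-angiotensin genes tested, 7 were negative with a median of -0.30, and 3 had an unadjusted edgeR p under 0.05 (4.05% of all genes). Their log2 fold changes ran from -0.80 to 1.08. The limma voom fit called 1 higher and 3 lower, against 4.92% and 3.96% of all genes. Without Arg/Arg replicate 2 or Trp/Trp replicate 2, 5 were positive and 5 negative. The angiotensin receptor Agtr1a was at 23.6, 39 and 46.1 CPM in Arg/Arg and 26.1, 14.6 and 21.9 CPM in Trp/Trp (-0.80 ± 0.30), and Enpep, an aminopeptidase that cleaves angiotensin II, at 124, 206 and 277 CPM in Arg/Arg and 154, 79.7 and 128 CPM in Trp/Trp (-0.75 ± 0.33). In both genes Trp/Trp replicate 1 was above Arg/Arg replicate 1, so the genotypes overlapped. The median of this list ran from -0.69 (Trp/Trp 1) to -0.09 (Trp/Trp 2) and its count on the lower side from 0 (Arg/Arg 2 or Arg/Arg 3 or Trp/Trp 2) to 5 (Trp/Trp 1).

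Markers of later nephron segments were on the higher side. Of 11 thick ascending limb markers, 10 were positive with a median of 0.76, and 6 had an unadjusted edgeR p under 0.05 (4.51% of all genes). The count of 6 ran from 1 (Arg/Arg 3 or Trp/Trp 2) to 10 (Arg/Arg 1) and the median from 0.48 (Trp/Trp 2) to 1.04 (Arg/Arg 1). Umod, the protein most specific to that segment, was at 3417, 1921 and 2017 CPM in Arg/Arg and 3790.1, 6511 and 3276 CPM in Trp/Trp, with Arg/Arg replicate 1 above Trp/Trp replicate 3 (0.88 ± 0.36; 0.53 to 1.20 over the 6 fits). Cldn16, a tight junction protein that lets magnesium through, was at 22.4, 13.6 and 10.8 CPM in Arg/Arg and 25.2, 56.4 and 26.1 CPM in Trp/Trp without overlap (1.21 ± 0.37).

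Of 17 distal convoluted tubule and principal cell markers tested, 16 were positive with a median of 0.67, and 8 had an unadjusted edgeR p under 0.05 (4.51% of all genes). This count ran from 1 (Arg/Arg 3) to 15 (Arg/Arg 1), fits in which 2.3% and 19.8% of all genes had such a p in either direction. The median ran from 0.48 (Arg/Arg 3) to 1.06 (Arg/Arg 1). Aqp2, the water channel that vasopressin moves to the membrane, was at 98.4, 73.9 and 48.9 CPM in Arg/Arg and 219, 97.9 and 109 CPM in Trp/Trp (0.94 ± 0.34), a value of 0.48 when Trp/Trp replicate 1 was left out. All 13 intercalated cell markers were positive with a median of 0.44, and 0 reached an unadjusted edgeR p under 0.05. Their median ran from 0.18 (Trp/Trp 3) to 0.73 (Arg/Arg 1) and that count from 0 (Arg/Arg 2 or Arg/Arg 3 or Trp/Trp 3) to 7 (Arg/Arg 1), and 9 of 13 were positive when Trp/Trp replicate 3 was left out. The summed levels of the distal convoluted tubule and principal cell list were 17773, 9441 and 6801 CPM in Arg/Arg and 16796, 18818 and 16749.5 CPM in Trp/Trp. Arg/Arg replicate 1 was within the range of the Trp/Trp libraries, and Arg/Arg replicates 2 and 3 were below it.

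Of 11 kidney injury markers tested, 10 were positive with a median of 0.70, and 2 had an unadjusted edgeR p under 0.05 (4.51% of all genes). The median ran from 0.45 (Arg/Arg 3) to 1.13 (Arg/Arg 1) and the count from 1 (Arg/Arg 3 or Trp/Trp 2) to 8 (Arg/Arg 1). Lcn2, released by injured tubules and by neutrophils, was at 8.22, 5.14 and 6.89 CPM in Arg/Arg and 21.7, 16.2 and 9.66 CPM in Trp/Trp without overlap (1.24 ± 0.35). Cdkn1a, which halts the cell cycle, was at 63.4, 50.6 and 23.2 CPM in Arg/Arg and 77, 104 and 75 CPM in Trp/Trp, also without overlap (0.90 ± 0.33).

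Of 18 genes of the TGF-beta pathway tested, 16 were positive with a median of 0.47. On the higher side 4 had an unadjusted edgeR p under 0.05 (4.51% of all genes) and 7 did not overlap (6.41% of all genes). The first count ran from 1 (Arg/Arg 3) to 6 (Arg/Arg 1). Besides Lrrc32, Ltbp1, which binds latent TGF-beta to the matrix, was at 13.9, 8.75 and 8.55 CPM in Arg/Arg and 17.1, 18.3 and 18.8 CPM in Trp/Trp (0.80 ± 0.27). All 11 fibroblast, pericyte and smooth muscle markers tested were positive with a median of 0.66, and 1, the collagen chain Col1a2, had an unadjusted edgeR p under 0.05 (1.55 ± 0.50; 4.51% of all genes). The median of this list ran from 0.31 (Arg/Arg 3) to 0.89 (Arg/Arg 1) and the count from 1 (Arg/Arg 3 or Trp/Trp 2 or Trp/Trp 3) to 6 (Arg/Arg 1), with 9 positive and 3 negative when Arg/Arg replicate 3 was left out. Of 14 endothelial markers, 10 were positive with a median of 0.36 that ran from 0.20 (Arg/Arg 3) to 0.48 (Arg/Arg 1). At an unadjusted edgeR p under 0.05 stood 2 higher and 0 lower, against 4.51% and 4.05% of all genes. Without Trp/Trp replicate 1 these counts were 0 higher and 2 lower. In that fit 12.1% of all genes had such a p, 646 higher and 910 lower. The limma voom fit called 0 higher and 2 lower, against 4.92% and 3.96% of all genes. Egfl7 was at 8.76, 8.61 and 4.78 CPM in Arg/Arg and 21.5, 11.7 and 8.9 CPM in Trp/Trp (0.93 ± 0.38; limma voom adjusted p = 0.34).

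The macrophage, antigen presentation, cytokine, tubular and stromal lists were read from the same libraries. Beside the MHC class II sums of 292, 130.2 and 100.1 CPM in Arg/Arg and 326, 448 and 512 CPM in Trp/Trp stood stromal sums of 742, 516 and 360.5 and 555, 1044 and 1040.2 CPM and the proximal tubule sums given above. The part of cell composition in any of these differences was not tested.

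In whole kidneys of the same genotypes edgeR called 0 of 14451 genes after adjustment and 830 had an unadjusted p under 0.05. Of the 6 lists given next, each had a kidney median nearer to 0 than in F4/80+ preparations. The median log2 fold change in kidney was 0.56 for the MHC class II list and 0.55 for the resident macrophage list. For the cytokines it was 0.23 over the 8 tested there, of the 14 tested in F4/80+ preparations. It was -0.02 for the proximal tubule markers, -0.04 for the transporters and -0.04 for the thick ascending limb markers. Some other lists went the other way, such as dendritic cell markers (0.32 in kidney, 0.27 in F4/80+ preparations) and podocyte markers (0.10 and 0.03). H2-Ab1 had a kidney log2 fold change of 0.48 ± 0.16, Cd74 0.63 ± 0.17, Slc5a12 -0.04 ± 0.13 and Clec2h 0.12 ± 0.23.

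The difference between the genotype effect in F4/80+ preparations and in kidney was tested as an interaction over the 12 libraries. edgeR called 0 of 13578 genes (0%, smallest adjusted p 0.684), and 921 (6.78%) had an unadjusted p under 0.05, so no effect was shown to differ between the sample types. Among the genes described here the interaction was -2.06 ± 0.44 for Clec2h, -1.75 ± 0.47 for Slc5a12, 1.41 ± 0.35 for Sdf2l1 and 0.75 ± 0.33 for H2-Ab1, on the log2 scale. An unadjusted edgeR interaction p under 0.05 was reached by 13 of the 31 transporters and 8 of the 22 proximal tubule markers, and by 1 of the 9 MHC class II genes. Without Arg/Arg F4/80+ replicate 1, 580 genes were called in the interaction.

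**Figure D4:**
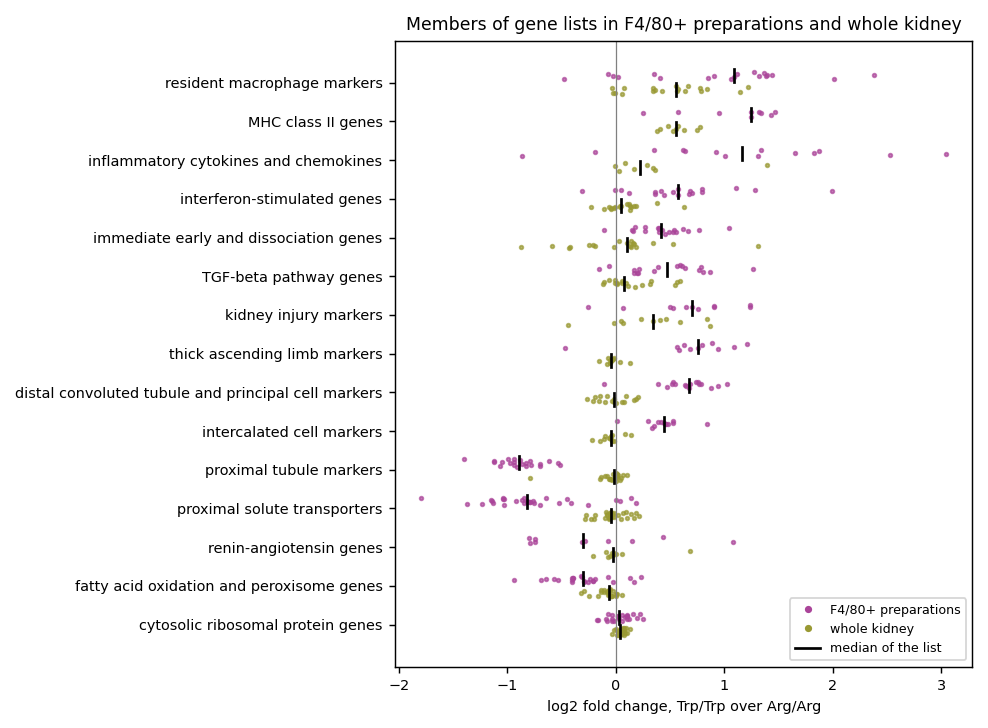
Log2 fold change of Trp/Trp over Arg/Arg for each tested member (points) and the median (bar) of each list, in F4/80+ preparations and in whole kidney. The proximal tubule medians are -0.90 in F4/80+ preparations and -0.02 in kidney, and the MHC class II medians 1.25 and 0.56.

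The number of genes at an unadjusted edgeR p under 0.05 depended on single libraries. It was 2559 when Arg/Arg replicate 1 was left out, 1556 when Trp/Trp replicate 1 was, and 297 to 681 when any 1 of the other 4 libraries was. edgeR called 0 genes in each case, with the smallest adjusted p, 0.0624, without Arg/Arg replicate 1. The medians of the MHC class II, resident macrophage and cytokine lists stayed positive and those of the proximal tubule markers and transporters stayed negative in all 6 fits.

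**Figure D5:**
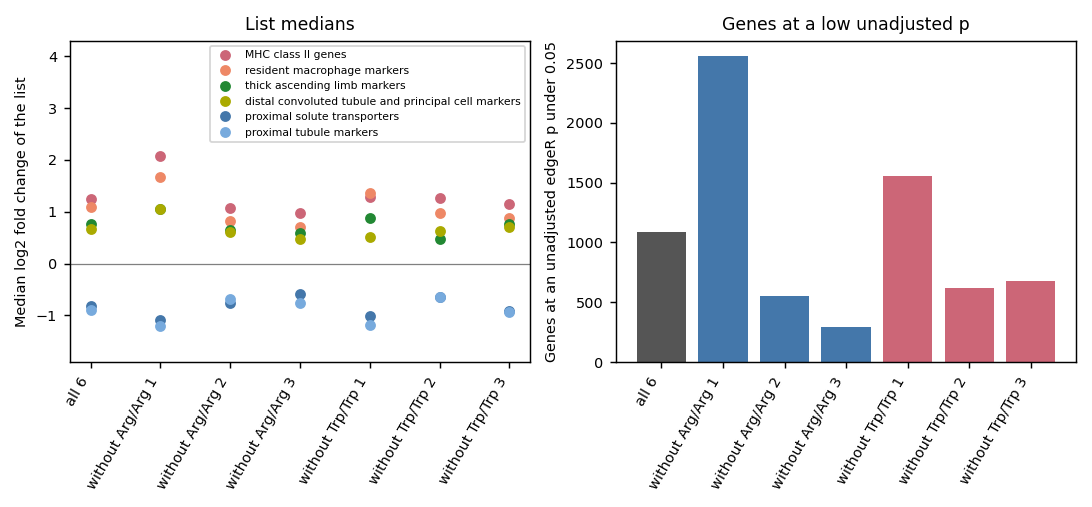
Median log2 fold change of selected lists (left) and number of genes at an unadjusted edgeR p under 0.05 (right) with all libraries and with each F4/80+ library left out. Without Arg/Arg replicate 1 the medians lie farthest from 0 for the MHC class II and proximal tubule lists and the number of genes is highest, at 2559.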

How the data were processed

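PolyA RNA of 6 F4/80+ preparations was analysed. The raw counts per gene were deposited by the authors; the submitters' processing notes name STAR, DRAGEN, DESeq2 and mm10 (no versions or roles), with an annotation release not given in the sources used here. Deposited statistics were not used. Of the 13845 nuclear protein-coding identifiers, 13840 were found in GENCODE M21. Genes with a count of at least 10 by edgeR's filterByExpr (total 15) were tested with edgeR 4.0.16 (R 4.3.3; TMM factors on nuclear protein-coding totals, quasi-likelihood test, Benjamini-Hochberg, threshold 0.05). The SE is the size of the log2 fold change divided by the root of F. Alternatives were DESeq2 1.42.0, limma 3.58.1 voom with sample weights, other scalings and filters, a replicate block and leaving out each library. The scripts were tested on simulated data. A fit leaving out both libraries numbered 1 was also run after the principal components were seen; it called many genes, and it is not reported because those libraries were picked by where they lay relative to genotype. The named genes were Sh2b3, 4 markers, the 15 of smallest p in each direction (mean count 50 or more), and the 4 of smallest p per list; other members were named after their values were seen, and a few genes are not reported here. The members and the 32 gene lists were chosen with earlier results of these data known.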

Additional observations from a re-analysis of the deposited data

How the results depend on the processing

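edgeR called 0 genes under the other scalings, the other filters, the replicate block and each left-out library, against 12 by DESeq2 and 1125 by limma voom. Genes at an unadjusted p under 0.05 numbered 1084 in edgeR, 3425 in limma voom and 628 with the replicate block; they ranged from 297 (without Arg/Arg replicate 3) to 2559 (without Arg/Arg replicate 1), and were 555, 616 and 681 when Arg/Arg replicate 2, Trp/Trp replicate 2 or Trp/Trp replicate 3 was left out. The labels do not say that equal replicate numbers mark a shared litter, day or animal, so the numbers were not taken to pair samples. Same-numbered libraries deviated from their group means with correlations of -0.33, -0.54 and 0.19, and Arg/Arg replicate 2 and Trp/Trp replicate 1 with 0.53. Deviations within a group of 3 are tied to each other, so these values cannot show whether samples were paired. F4/80+ genes whose groups do not overlap numbered 1359, and 1685 (without Arg/Arg replicate 3) to 4585 (without Arg/Arg replicate 1) with 1 library left out, an alternative added after seeing the data in which 3 against 2 libraries overlap less often by chance. The interaction gave 0 calls in all fits but 2: 580 without Arg/Arg F4/80+ replicate 1 and 1 without Trp/Trp F4/80+ replicate 1; the cause was not tested. Without the TMM factor the median of all genes moved from 0.01 to 0.15 and the genes at an unadjusted p under 0.05 split into 692 higher and 293 lower, against 571 and 513.

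Of 108 named genes, 107 kept their direction in every fit reported. Most of the 108 were picked for a small p in these same libraries, which favours a stable direction. Some genes named above, such as Mertk and Lyz2, were not in this check. Sh2b3 (-0.03) was at 0.11 without the TMM factor, 0.0062 with a count of at least 50 in 3 libraries, and from -0.29 to 0.15 with 1 library left out: 0.069, 0.15 and 0.015 when this was Arg/Arg replicate 2, Trp/Trp replicate 2 or Trp/Trp replicate 3. The 21 list medians were compared under the other scalings and filters and with each library left out, but not under DESeq2, limma voom or the replicate block. Among them, that of the endoplasmic reticulum stress genes (-0.07) changed sign, to 0.078 without the TMM factor. It ran from -0.15 (Arg/Arg replicate 1 left out) to 0.025 (Trp/Trp replicate 1 left out). Medians of lists outside these 21 (ribosomal, oxidative phosphorylation, heat shock, podocyte) also changed sign, as given with the other observations. Depth limits genes of few counts: Adgre1 had 10 to 127 counts per library.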

Other observations

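Gene groups of general cell function had medians near 0. The 25 cytosolic ribosomal protein genes had a median log2 fold change of 0.02 and the 22 nuclear genes of oxidative phosphorylation tested -0.03, and none of either list had an unadjusted edgeR p under 0.05. Without the TMM factor both medians were positive, at 0.17 and 0.11. With 1 library left out they ran from -0.11 (Trp/Trp 1) to 0.27 (Arg/Arg 2) and from -0.14 (Arg/Arg 1) to 0.14 (Arg/Arg 2), so neither has a direction. The 14 heat shock genes had a median of 0.02 that ran from -0.18 (Trp/Trp 2) to 0.04 (Trp/Trp 3). Hspa8, the constitutive chaperone, was at 2589, 3758 and 3956 CPM in Arg/Arg and 1717, 2371 and 2869 CPM in Trp/Trp (-0.57 ± 0.31).

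Of 12 cell cycle genes tested, 10 were positive with a median of 0.32, and 2 had an unadjusted edgeR p under 0.05 (4.51% of all genes), a count that ran from 0 (Arg/Arg 2 or Trp/Trp 2 or Trp/Trp 3) to 4 (Trp/Trp 1). Mki67, the proliferation marker, was at 12.7, 10.3 and 13 CPM in Arg/Arg and 13, 24.7 and 20.9 CPM in Trp/Trp (0.70 ± 0.29), with Arg/Arg replicate 3 and Trp/Trp replicate 1 level. Among 20 endoplasmic reticulum stress genes, Sdf2l1 was higher and Herpud1 lower in every Trp/Trp library; Herpud1, which takes part in the removal of misfolded proteins, was at 231, 373 and 323 CPM in Arg/Arg and 212, 179 and 219 CPM in Trp/Trp (-0.60 ± 0.25). The 9 podocyte markers had a median of 0.03 that ran from -0.57 (Trp/Trp 1) to 0.30 (Trp/Trp 3). When Trp/Trp replicate 1 was left out 8 of the 9 were negative, 3 of them at an unadjusted edgeR p under 0.05. In that fit 12.1% of all genes had such a p, in either direction. Podxl, a surface sialoprotein of podocytes, was at 121, 87.8 and 95.8 CPM in Arg/Arg and 164, 117 and 99.6 CPM in Trp/Trp (0.32 ± 0.25), with overlap.

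Other immune lists were near the limit of detection. Of 16 monocyte and neutrophil markers 7 were in the table and 3 were tested, of which Fn1, fibronectin, was at 10.7, 10.4 and 6.22 CPM in Arg/Arg and 10.4, 25.9 and 15.8 CPM in Trp/Trp (0.93 ± 0.37). Of 13 dendritic cell markers 4 were tested, with a median of 0.27 that ran from 0.14 (Arg/Arg 2) to 0.53 (Arg/Arg 1). Cd8a was at 6.88, 1.67 and 1.89 CPM in Arg/Arg and 6.68, 2.14 and 4.96 CPM in Trp/Trp, with the highest values in the libraries numbered 1. The B cell gene Cd79b was at 1.21, 0 and 0.222 CPM in Arg/Arg and 1.5, 1.07 and 1.27 CPM in Trp/Trp, and of 11 red cell and platelet markers Hbb-bs was at 5.53, 1.11 and 3.11 CPM in Arg/Arg and 5.01, 4.81 and 0.254 CPM in Trp/Trp. Of 10 retinoic acid genes tested, Cyp26b1 alone had an unadjusted edgeR p under 0.05. The 4 Y-linked genes had counts in all 6 libraries, with summed levels of 313, 239 and 373 CPM in Arg/Arg and 182, 331 and 264 CPM in Trp/Trp.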
